A study of Mus musculus with 8 samples.

Results

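The genes described here encode the proteins of the cytosolic ribosome, with their paralogs. They were chosen by symbol, as every Rpl or Rps symbol made of a number with at most a letter and a digit after it, together with Rplp0, Rplp1, Rplp2 and Rpsa. The rule found 84 of the 23284 genes in the count files, 51 of the large subunit and 33 of the small subunit. Of these, 77 are core members and 7 are paralogs, namely the rare paralogs Rpl3l, Rpl22l1, Rpl39l and Rps27l and, inside the same pattern, Rpl7l1, Rpl10l and Rps4y2. Kinases such as Rps6ka1 are outside the rule. After genes with low counts were removed, 81 members were among the 15106 genes tested, 48 of the large and 33 of the small subunit. Rpl10l, Rpl26 and Rpl39l were not tested.

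The study measured mRNA by sequencing in peripheral retina of mice at postnatal day 12. The labels give 4 libraries as Rb null with TET-MYCN, written TET-MYCN below, and 4 libraries as Rb null, written Rb-null. Both groups carry the Pax6 alpha-enhancer Cre, whose activity is confined to a portion of the retina, so the dissected tissue can also hold cells without recombination. TET-MYCN mice carry Rosa26 LSL-RTTA, a tetracycline transactivator that Cre switches on, and TRE-MYCN, a MYCN transgene that this transactivator drives. Rb-null mice carry Rb lox/lox. The series' design text does not repeat the floxed Rb allele for TET-MYCN mice, although the title and the genotype label do give Rb loss in that group. No tetracycline or doxycycline is named. Whether each library is from a different animal is not stated, and p-values therefore cover only the variation among libraries, part of which may be technical. Y-linked transcripts were present in some libraries of each group and near 0 in others. The libraries of a group are thus not all repeats of the same RNA sample.

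A ribosome is built of a small subunit, which reads the mRNA, and a large subunit, which joins amino acids, and each core protein is needed in about the same number of copies. Many ribosomal protein mRNAs begin with a C followed by a run of C and T, the terminal oligopyrimidine or TOP motif, through which the growth-sensing kinase mTOR sets their translation. MYC proteins, MYCN among them, are known to raise expression of ribosomal protein genes and ribosome assembly factors in many cell types. Some core proteins have a paralog used mainly in one tissue, such as Rpl3l in heart and skeletal muscle and Rpl39l and Rpl10l in testis.

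The libraries held 16166000 to 22873979 gene counts in TET-MYCN and 14872131 to 20007977 in Rb-null, so 3 counts were worth 0.130 to 0.202 CPM, the counts scaled to 1000000 gene counts per library. Mycn itself had 242 ± 37.6 CPM in TET-MYCN and 231 ± 95.0 CPM in Rb-null (SD, n = 4 each), a log2 fold change of 0.07 ± 0.28 (SE; adjusted p = 0.934, by the quasi-likelihood test of edgeR with Benjamini-Hochberg adjustment). Rb1 had a log2 fold change of -0.06 ± 0.14 (SE, with an adjusted p of 0.883, same test). Neither gene set the labelled groups apart, and whether reads of the MYCN transgene or of a floxed allele are counted under these symbols was not tested. All 10 retinal identity markers were present. Y-linked transcripts were near 0 in TET-MYCN 2, TET-MYCN 4 and Rb-null 3, while TET-MYCN 3 and Rb-null 1, 2 and 4 held both Xist and Y-linked transcripts, and their part in the results was not tested. No 2 libraries, within or between groups, were alike within counting error. The closest pair was TET-MYCN 2 with Rb-null 2, with a chi-square per degree of freedom of 15.5, against 24.4 to 66.1 between TET-MYCN 2 and the other TET-MYCN libraries.

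Reads of ribosomal protein genes took a larger share of the gene counts in 3 of the 4 TET-MYCN libraries. The share was 3.06%, 2.20%, 3.35% and 3.54% in TET-MYCN 1 to 4, against 2.05%, 2.16%, 1.78% and 2.30% in Rb-null 1 to 4. TET-MYCN 1, 3 and 4 lay above every Rb-null library, and TET-MYCN 2 lay below Rb-null 4. The mean share was 3.04 ± 0.591% in TET-MYCN and 2.07 ± 0.220% in Rb-null (SD, n = 4 each), and no test was run on this sum. In whole tissue, more or fewer cells of a type and more or less of an mRNA per cell cannot be told apart.

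**Figure D1:**
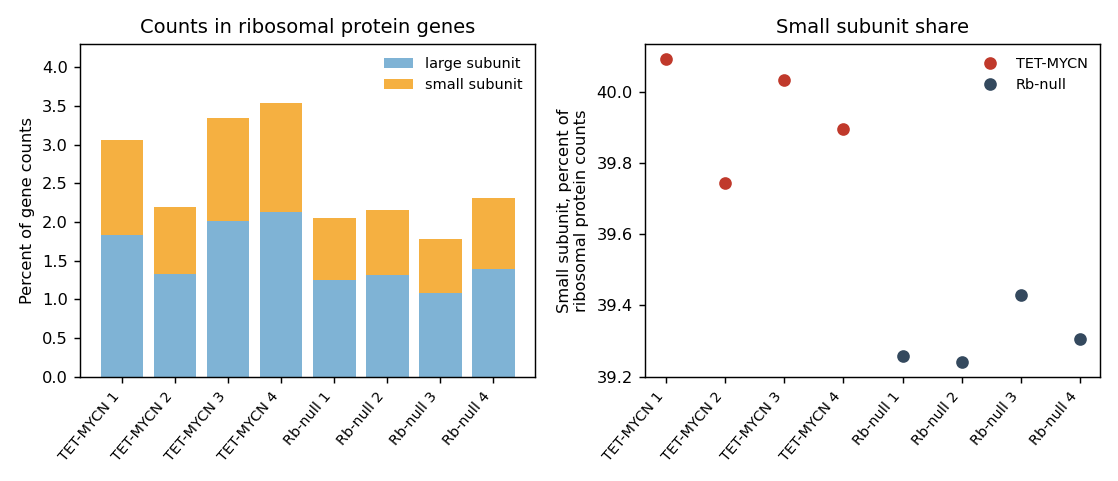
Left, percent of gene counts in ribosomal protein genes per library, as stacked bars of the large and small subunit. Right, the small subunit's percent of those counts per library, on an axis that does not start at 0. In the left panel TET-MYCN 2, at 2.20%, stands among the Rb-null libraries, and in the right panel all 4 TET-MYCN libraries lie above all 4 Rb-null libraries.

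All 81 tested members had a positive log2 fold change, where 52.2% of the 15106 genes did. The median was 0.52 over the members, with a middle range of 0.47 to 0.60, and 0.01 over all genes tested, with a middle range of -0.15 to 0.17. No member passed an adjusted p of 0.05 in edgeR's quasi-likelihood test with Benjamini-Hochberg adjustment, where 0.0596% of all genes did, and the lowest adjusted p of a member was 0.155. At an unadjusted p under 0.05, 73 members were higher and 0 were lower in TET-MYCN, against 8.06% of all genes higher and 7.72% lower. In 20 members every TET-MYCN library lay above every Rb-null library, which held for 4.36% of all genes, and no member showed the opposite order, which held for 3.29%. The members share the same 8 libraries and are not independent of each other.

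In edgeR's test the number of members called depended on TET-MYCN 2. Without it, 40 of 81 members passed as higher and 0 as lower, 21 of the large and 19 of the small subunit, where 0.87% of all genes passed in either direction and 0.699% as higher. The median log2 fold change was then 0.64, and the groups did not overlap for 76 members, against 8.12% of all genes. Without Rb-null 4 they did not overlap for 52 members, against 5.4% of all genes. DESeq2 on all 8 libraries called 38 of 82 members as higher, 20 large and 18 small, where 2% of all genes were called as higher. Both ways of testing called the same 34 members, and neither called a paralog. limma-voom called 0 members and 0% of all genes, with 73 members at an unadjusted p under 0.05. The share of all genes at that unadjusted threshold was not taken for limma-voom. Leaving out any 1 of the other 7 libraries left the count of members at 0. Of all genes, 1.52% passed without TET-MYCN 3, and 0% to 0.0066% passed without each of the remaining 6.

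Within each group the members varied together by library. TET-MYCN 2 was the lowest of its group for 79 of 81 members, and Rb-null 3 was the lowest of all 8 libraries for 73. The highest of the 8 libraries was TET-MYCN 4 for 42 members and TET-MYCN 3 for 38. Set against the mean of the Rb-null libraries, the median log2 deviation of the 76 tested core members was 0.55, 0.09, 0.70 and 0.73 in TET-MYCN 1 to 4, against 0.01, 0.02, -0.18 and 0.16 in Rb-null 1 to 4. TET-MYCN 1, 3 and 4 exceeded every Rb-null library for 76, 80 and 78 members, and TET-MYCN 2 did so for 20. TET-MYCN 2 still lay above the Rb-null median for 64 of 81 members.

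**Figure D2:**
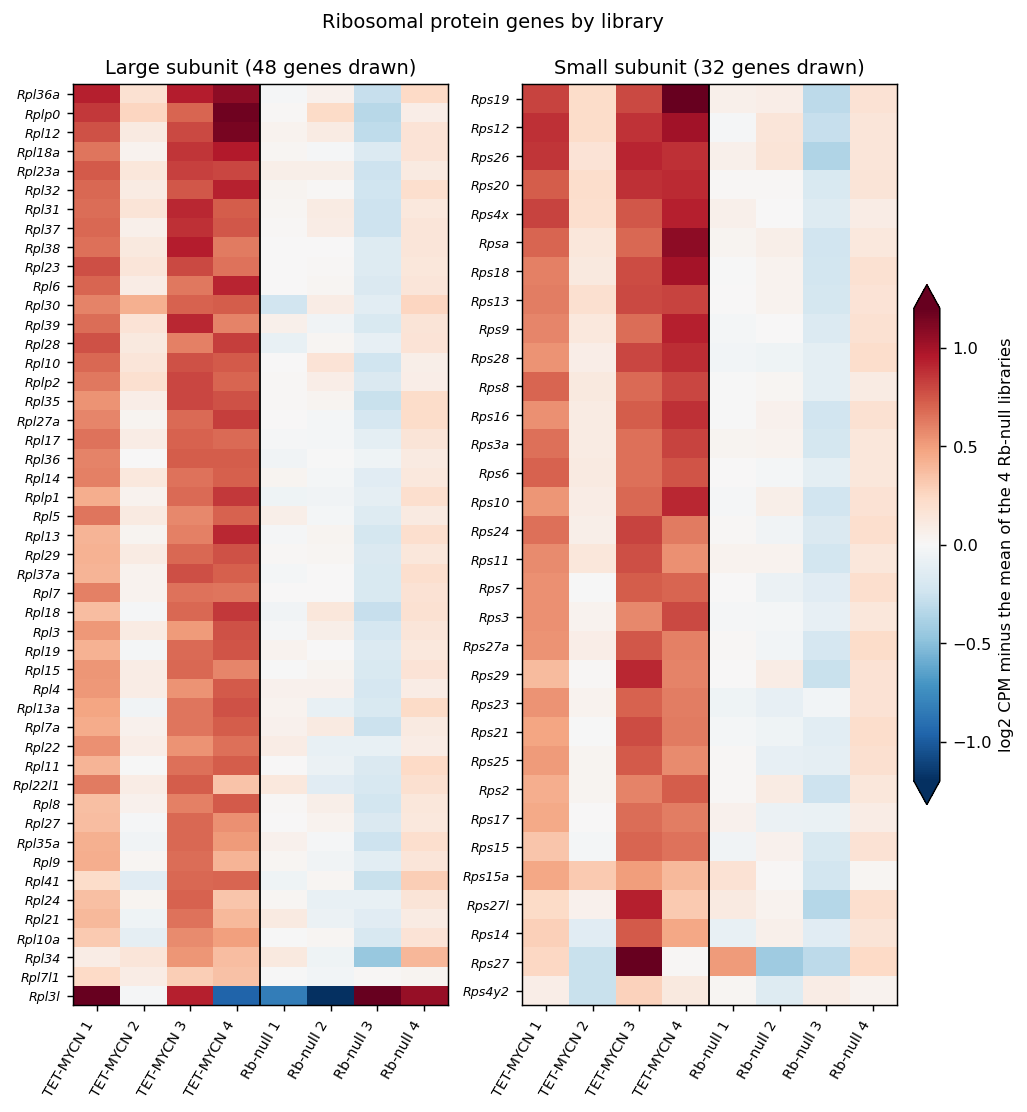
Each row is a tested member, apart from 1 that is not drawn, and each column a library, and the colour gives log2 CPM minus the mean log2 CPM of the 4 Rb-null libraries, with values past the ends of the scale drawn in the end colour. Genes run from the highest to the lowest log2 fold change within each subunit. The column of TET-MYCN 2 is pale where TET-MYCN 1, 3 and 4 are red, and the bottom rows hold Rpl3l and Rps4y2, with log2 fold changes of 0.03 and 0.06.

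The starts of these genes show where the TOP motif is and is not found near the annotated start. RefSeq promoter windows of GRCm38.p6, which run from 250 bases before to 50 bases after the start, matched 63 of the 84 members. The files themselves were made on mm9, so these coordinates are used for sequence only. Below, each line gives 30 bases before and 20 bases from the annotated start, 5′ to 3′. Capitals mark the run of C and T that begins with a C within 5 bases of the start. Rplp2, Rpl28, Rps18 and Rps10 show long runs, Rps27 is a core gene with few counts, and Rpl22l1 and Rps27l are paralogs with a run of their own.
Rplp2 (chr7:141447621-141447670, plus strand): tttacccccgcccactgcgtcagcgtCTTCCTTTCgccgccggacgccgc
Rpl28 (chr7:4792935-4792984, plus strand): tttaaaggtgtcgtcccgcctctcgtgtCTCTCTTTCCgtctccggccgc
Rps18 (chr17:33955646-33955695, minus strand): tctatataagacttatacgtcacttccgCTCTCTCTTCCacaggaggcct
Rps10 (chr17:27635225-27635274, minus strand): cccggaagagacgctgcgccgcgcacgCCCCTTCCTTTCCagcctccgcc
Rps27 (chr3:90213629-90213678, minus strand): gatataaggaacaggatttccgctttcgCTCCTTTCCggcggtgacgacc
Rpl22l1 (chr3:28805478-28805527, plus strand): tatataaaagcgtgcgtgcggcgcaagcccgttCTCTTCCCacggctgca
Rps27l (chr9:66946056-66946105, plus strand): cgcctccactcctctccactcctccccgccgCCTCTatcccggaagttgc

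The next stretches show members with large or small fold changes and no such run of 5 bases or more at the annotated start. Capitals mark CACGTG, the E-box that MYC proteins are known to bind, which was found in the Rpl23 stretch.
Rpl23 (chr11:97782420-97782469, minus strand): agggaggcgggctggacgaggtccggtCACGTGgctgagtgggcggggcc
Rps4x (chrX:102189372-102189421, minus strand): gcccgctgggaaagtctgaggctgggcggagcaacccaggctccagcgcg
Rps12 (chr10:23787190-23787239, minus strand): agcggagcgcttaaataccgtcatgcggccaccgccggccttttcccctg
Rpl36a (chrX:134585624-134585673, plus strand): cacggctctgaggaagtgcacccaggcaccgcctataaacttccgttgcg
Rpl7l1 (chr17:46782637-46782686, minus strand): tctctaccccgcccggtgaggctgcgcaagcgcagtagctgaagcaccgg
Rpl3l (chr17:24727796-24727845, plus strand): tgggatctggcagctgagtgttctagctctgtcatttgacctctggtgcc

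A run of at least 8 bases was found in 21 of the 63 matched members, or 33.3%, and in 5.2% of the 27025 genes with a window. With a minimum of 5 bases it was found in 29 members, or 46.0%, against 21.2% of all genes. The run was read on the transcribed strand alone and depends on the annotated start being exact. A missing run therefore says only that none began with a C within 5 bases of that start. A run further in, as in the Rps12 stretch, was not counted. On that strand around the start, CTCTTT stood in 11.1% of members and 0.6% of all genes, CTTTCT in 3.2% and 0.8%, and CTTTT in 4.8% and 1.8%, and these hexamers and the pentamer can lie inside the run. CACGTG, which reads alike on both strands, stood anywhere in the 300-base window in 6 members, or 9.5%, against 8.1% of all genes. The median log2 fold change was 0.55 over the 21 tested members with a run of at least 8 bases and 0.51 over the 39 without, and 0.51 over the 6 with CACGTG and 0.52 over the 54 without. The medians lie close together, and no test was run on them.

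Among large-subunit members the median log2 fold change was 0.51. In 10 of 48 the groups did not overlap, all higher in TET-MYCN, against 4.36% of all genes. The P-stalk, formed by Rplp0, Rplp1 and Rplp2, recruits the GTPase factors of translation. Rplp2 had 242, 178, 272 and 253 CPM in TET-MYCN 1 to 4, against 158, 165, 138 and 164 CPM in Rb-null 1 to 4. Every TET-MYCN library exceeded every Rb-null library, with TET-MYCN 2 the nearest to them, and the log2 fold change was 0.59 ± 0.14 (SE; adjusted p = 0.158, by the quasi-likelihood test of edgeR, Benjamini-Hochberg). Rplp0, added after its values were seen, had 1022, 680.2, 922 and 1277 CPM in TET-MYCN 1 to 4, against 575, 667, 452 and 601 CPM in Rb-null 1 to 4. Its groups did not overlap either, and TET-MYCN 2 lay just above Rb-null 2. The log2 fold change was 0.77 ± 0.20 for Rplp0 (adjusted p = 0.164) and 0.53 ± 0.17 for Rplp1 (adjusted p = 0.208, same test).

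Rpl36a, a protein of the tRNA exit site, had the highest fold change of all members. It had 151, 89.5, 152 and 166 CPM in TET-MYCN 1 to 4, against 78.3, 81.9, 65.3 and 93.2 CPM in Rb-null 1 to 4. TET-MYCN 2 lay under Rb-null 4, so the groups overlapped, while the other 3 TET-MYCN libraries stood well above. The log2 fold change was 0.81 ± 0.19 (adjusted p = 0.158), and without TET-MYCN 2 it was 0.97 (adjusted p = 0.0260, by the quasi-likelihood test of edgeR in both). Leaving out any other single library gave an adjusted p of 0.0922 to 0.414 in the same test.

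Rpl23, which faces the small subunit and is also known to bind Mdm2, had 421, 271.1, 425 and 385 CPM in TET-MYCN 1 to 4, against 247, 247, 221 and 269.7 CPM in Rb-null 1 to 4. TET-MYCN 2 lay above Rb-null 4 by less than the spread within either group. Rpl23a, which lies at the exit of the peptide tunnel, had 463, 306, 494 and 485 CPM in TET-MYCN 1 to 4, against 293, 293, 235 and 299.7 CPM in Rb-null 1 to 4. Rpl14 had 340.3, 244.6, 351 and 367 CPM in TET-MYCN 1 to 4, against 228, 220.3, 203 and 244 CPM in Rb-null 1 to 4. In these 3 genes the groups did not overlap, and TET-MYCN 2 cleared the highest Rb-null library by a narrow gap. Their log2 fold changes were 0.61 ± 0.15 for Rpl23 (adjusted p = 0.159), 0.64 ± 0.16 for Rpl23a and 0.54 ± 0.14 for Rpl14 (adjusted p = 0.164 for both, by the quasi-likelihood test of edgeR).

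Per kilobase of 1 annotated transcript per gene, the large-subunit members with the highest levels were Rplp1, Rpl41 and Rpl13. Their mean levels were 1268, 1054 and 853 CPM per kilobase in TET-MYCN and 879, 802 and 597 CPM per kilobase in Rb-null. Rpl41, the shortest ribosomal protein, had 502, 394, 697 and 701 CPM in TET-MYCN 1 to 4, against 416, 440.2, 360.2 and 529 CPM in Rb-null 1 to 4. TET-MYCN 1 and 2 both lay within the Rb-null range, and the log2 fold change was 0.39 ± 0.20 (adjusted p = 0.362, by the quasi-likelihood test of edgeR). Rpl13 had a log2 fold change of 0.52 ± 0.18 (SE, with an adjusted p of 0.230, same test).

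Among small-subunit members the median log2 fold change was 0.56. In 10 of 33 the groups did not overlap, all higher in TET-MYCN, against 4.36% of all genes. The lowest p of all members belonged to Rps20, a protein of the head of the small subunit, at an unadjusted 0.00113 and an adjusted 0.155 (edgeR's quasi-likelihood test). It had 305.5, 213.1, 338.8 and 341.6 CPM in TET-MYCN 1 to 4, against 185.4, 186.1, 162.5 and 205.0 CPM in Rb-null 1 to 4. The groups did not overlap, and 213.1 CPM in TET-MYCN 2 lay close to 205.0 CPM in Rb-null 4. Without TET-MYCN 2 the log2 fold change of Rps20 was 0.83 (adjusted p = 0.0260, by the quasi-likelihood test of edgeR). Leaving out any other single library gave an adjusted p of 0.0734 to 0.410 in the same test.

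Rps12, at the beak of the small subunit, had 318, 202, 316 and 348 CPM in TET-MYCN 1 to 4, against 172, 191, 143 and 191 CPM in Rb-null 1 to 4. Rps13 had 251, 188, 285 and 289 CPM in TET-MYCN 1 to 4, against 166, 169, 142 and 184 CPM in Rb-null 1 to 4. In both genes TET-MYCN 2 was the lowest of its group and Rb-null 3 the lowest of the 8, and the groups did not overlap. Log2 fold changes were 0.77 ± 0.17 for Rps12 (adjusted p = 0.157) and 0.62 ± 0.15 for Rps13 (adjusted p = 0.158, by the quasi-likelihood test of edgeR). Of their 50-base stretches, 9.9% for Rps12 and 17.0% for Rps13 occur in no other annotated gene.

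Per kilobase, the small-subunit members with the highest levels were Rps14, Rps15 and Rps9, at 877, 880.3 and 841 CPM per kilobase in TET-MYCN and 679, 650.1 and 553 CPM per kilobase in Rb-null. Rps14 was also among the 3 small-subunit members with the lowest log2 fold change. It had 494, 368, 674 and 559 CPM in TET-MYCN 1 to 4, against 380.3, 422, 369 and 451 CPM in Rb-null 1 to 4. TET-MYCN 2 was the lowest of all 8 libraries for this gene, and the log2 fold change was 0.37 ± 0.17 (adjusted p = 0.332, by the quasi-likelihood test of edgeR). Rps9 had a log2 fold change of 0.60 ± 0.16 (SE, with an adjusted p of 0.168) and Rps15 one of 0.44 ± 0.16 (adjusted p = 0.249, same test).

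The subunits had close median fold changes. Over core members alone the median log2 fold change was 0.52 for 45 large-subunit genes and 0.57 for 31 small-subunit genes. Small-subunit genes held 40.09%, 39.74%, 40.03% and 39.89% of the ribosomal protein counts in TET-MYCN 1 to 4, against 39.26%, 39.24%, 39.43% and 39.31% in Rb-null 1 to 4. The groups did not overlap, also for TET-MYCN 2, and the means lay 0.632 percentage points apart, at 39.9 ± 0.155% in TET-MYCN and 39.3 ± 0.0853% in Rb-null (SD, n = 4 each). This percentage weights each gene by its counts. With each tested gene weighted alike, the mean log2 CPM of the large subunit minus that of the small subunit was -0.018, -0.019, -0.062 and -0.059 in TET-MYCN 1 to 4, against -0.048, -0.032, 0.017 and 0.005 in Rb-null 1 to 4. On that scale the groups overlapped. No test was run on either sum, and the difference between the subunits was not tested.

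**Figure D3:**
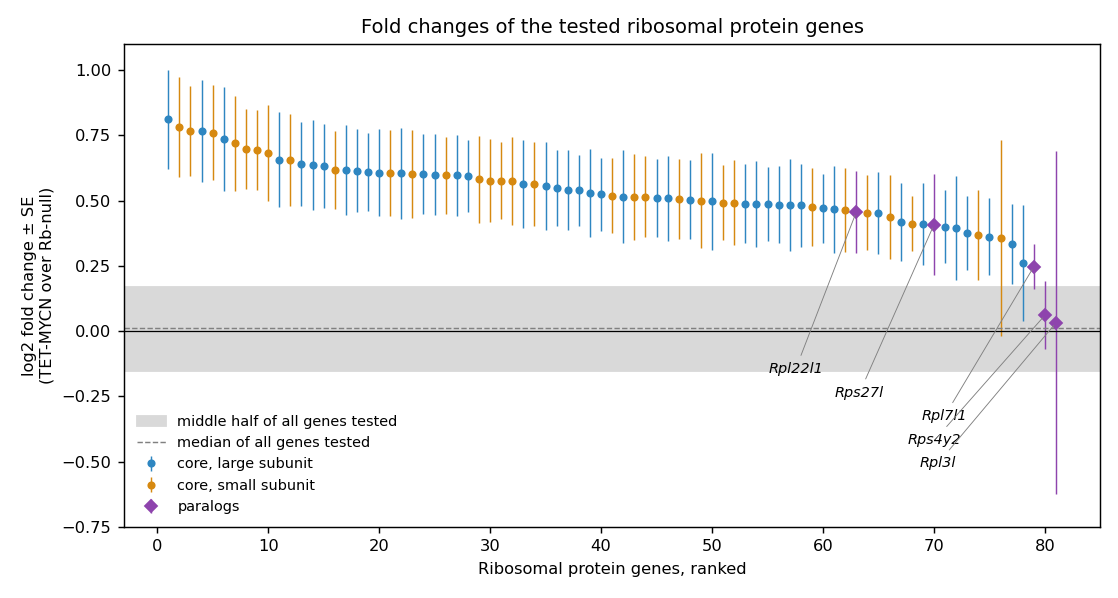
Log2 fold change of each tested member in TET-MYCN over Rb-null, with its standard error, ranked from highest to lowest and coloured by class. The grey band holds the middle range of all genes tested, from -0.15 to 0.17. All 76 core members lie above that band, and of the 5 tested paralogs Rps4y2, at 0.06, and Rpl3l, at 0.03, lie inside it.

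A group of 4 core members, picked out after their values were seen, had very few counts. Mean levels over all 8 libraries were 4.998 CPM for Rpl30, 3.33 CPM for Rpl34, 1.36 CPM for Rps27 and 0.350 CPM for Rpl26, and the next lowest core member, Rpl36a, had 109.8 CPM. Many of their 50-base stretches also occur in other annotated transcripts, with 23.6% unique to Rpl30, 49.4% to Rpl34, 1.4% to Rps27 and 28.7% to Rpl26. Members with full counts can be as repetitive, however, such as Rpl10 at 7.9% unique and 340.5 CPM. Reads aligned to several places, which made up 9.15% to 12.8% of the reads in TET-MYCN and 9.05% to 11.7% in Rb-null, enter no gene count. The part of shared sequence in these levels was not tested.

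Rps27 and Rpl34 were among the 3 tested members with the lowest log2 fold change in their subunits. Rps27 had 1.36, 0.952, 2.70 and 1.16 CPM in TET-MYCN 1 to 4, against 1.63, 0.8505, 0.918 and 1.35 CPM in Rb-null 1 to 4, and TET-MYCN 3 alone stood apart. Its log2 fold change was 0.36 ± 0.38 (adjusted p = 0.697, by the quasi-likelihood test of edgeR), and -0.06 without TET-MYCN 3. Rpl34 had a log2 fold change of 0.26 ± 0.22 (SE, with an adjusted p of 0.606, same test). Rpl30 had 5.93, 5.28, 6.41 and 6.50 CPM in TET-MYCN 1 to 4, against 3.36, 4.19, 3.605 and 4.71 CPM in Rb-null 1 to 4. Its groups did not overlap, TET-MYCN 2 included, at a log2 fold change of 0.60 ± 0.17 (SE, with an adjusted p of 0.184, same test). Rpl26 had 4, 9, 13 and 7 counts in TET-MYCN 1 to 4, against 5, 6, 5 and 2 counts in Rb-null 1 to 4, and did not pass the filter. The median log2 fold change was 0.56 over core members at or above the median share of unique stretches and 0.52 over those below it.

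The 5 tested paralogs had a median log2 fold change of 0.25, against 0.53 for the core members, and none passed an adjusted p of 0.05. Each was set against its core partner by the log2 ratio of their counts within a library, which does not depend on library scaling. Differences between groups were tested with a two-sided exact permutation test over 70 arrangements of the 8 libraries, whose smallest p is 0.0286, and p-values were adjusted over the 5 pairs by Benjamini-Hochberg. None of the 5 pairs passed an adjusted p of 0.05. A single pair at the smallest p adjusts to 0.143, so 1 pair alone could not pass, and a p above the threshold does not show that ratios were alike.

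Rps4y2 is an older symbol of Rps4l, which RefSeq lists as a transcribed pseudogene on an autosome and which is a relative of the X-linked Rps4x. Rps4y2 had 29.28, 23.02, 33.61 and 29.96 CPM in TET-MYCN 1 to 4, against 28.1, 24.9, 29.4 and 28.6 CPM in Rb-null 1 to 4. The groups overlapped fully, with a log2 fold change of 0.06 ± 0.13 (SE, with an adjusted p of 0.866, by the quasi-likelihood test of edgeR). Rps4x had 578, 380.2, 552 and 629 CPM in TET-MYCN 1 to 4, against 344, 331, 297 and 352 CPM in Rb-null 1 to 4, with a log2 fold change of 0.69 ± 0.15 (SE, with an adjusted p of 0.155, same test). Counts of Rps4y2 were thus 5.06%, 6.05%, 6.09% and 4.76% of those of Rps4x in TET-MYCN 1 to 4, against 8.18%, 7.52%, 9.91% and 8.13% in Rb-null 1 to 4. The groups did not overlap, TET-MYCN 2 included. The log2 ratio averaged -4.19 ± 0.18 in TET-MYCN and -3.57 ± 0.17 in Rb-null (SD, n = 4 each), a difference of -0.62 (exact permutation p = 0.0286, the smallest it can give; adjusted p = 0.143).

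Rpl7l1, a relative of the yeast assembly factor Rlp7, had 91.7, 82.2, 94.9 and 98.9 CPM in TET-MYCN 1 to 4, against 77.0, 75.6, 78.3 and 79.0 CPM in Rb-null 1 to 4. It was the one paralog whose groups did not overlap, with the narrowest spread in Rb-null, and its log2 fold change was 0.25 ± 0.09 (adjusted p = 0.236, by the quasi-likelihood test of edgeR). Its partner Rpl7 had 565, 381, 585 and 581 CPM in TET-MYCN 1 to 4, against 373, 372, 328 and 418 CPM in Rb-null 1 to 4, a log2 fold change of 0.50 ± 0.15 (SE, with an adjusted p of 0.194, same test). The log2 ratio of Rpl7l1 to Rpl7 was -2.62, -2.21, -2.62 and -2.55 in TET-MYCN 1 to 4, against -2.28, -2.30, -2.07 and -2.40 in Rb-null 1 to 4. TET-MYCN 2 lay among the Rb-null libraries and the other 3 below them. The means were -2.50 ± 0.20 in TET-MYCN and -2.26 ± 0.14 in Rb-null (SD, n = 4 each), a difference of -0.24 (exact permutation p = 0.114; adjusted p = 0.286).

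Rpl22l1, which in mouse is known to be held down by its partner Rpl22, had 48.2, 33.4, 52.0 and 39.7 CPM in TET-MYCN 1 to 4, against 34.3, 28.6, 27.5 and 35.9 CPM in Rb-null 1 to 4. TET-MYCN 2 lay within the Rb-null range, and the log2 fold change was 0.46 ± 0.16 (adjusted p = 0.227, by the quasi-likelihood test of edgeR). Rpl22 had 236, 171, 235 and 256 CPM in TET-MYCN 1 to 4, against 172, 152, 152 and 172 CPM in Rb-null 1 to 4, a log2 fold change of 0.47 ± 0.13 (SE, with an adjusted p of 0.173, same test). The log2 ratio of Rpl22l1 to Rpl22 averaged -2.38 ± 0.22 in TET-MYCN and -2.37 ± 0.09 in Rb-null (SD, n = 4 each), a difference of -0.01 (exact permutation p = 0.943; adjusted p = 0.943). TET-MYCN 4 gave the lowest ratio of the 8, at -2.69, and TET-MYCN 3 the highest, at -2.18.

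Rps27l, known as a target of p53, had 42.9, 38.1, 69.8 and 45.6 CPM in TET-MYCN 1 to 4, against 39.4, 37.7, 28.8 and 42.1 CPM in Rb-null 1 to 4. TET-MYCN 3 stood above all others and TET-MYCN 2 lay within the Rb-null range, and the log2 fold change was 0.41 ± 0.19 (adjusted p = 0.340, by the quasi-likelihood test of edgeR). Set against the few counts of Rps27, its log2 ratio averaged 5.05 ± 0.29 in TET-MYCN and 4.96 ± 0.35 in Rb-null (SD, n = 4 each), a difference of 0.08 (exact permutation p = 0.771; adjusted p = 0.943). A paralog with more counts than its core partner is the reverse of the order in the other 4 pairs, and Rps27 has 1.4% unique 50-base stretches against 77.6% in Rps27l.

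Rpl3l, the paralog of heart and skeletal muscle, had 46, 27, 40 and 12 counts in TET-MYCN 1 to 4, against 13, 6, 50 and 36 counts in Rb-null 1 to 4. These are 2.84, 1.17, 2.25 and 0.604 CPM in TET-MYCN 1 to 4, against 0.662, 0.365, 3.28 and 2.42 CPM in Rb-null 1 to 4. High and low libraries occurred in both groups, and the log2 fold change was 0.03 ± 0.66 (adjusted p = 0.989, by the quasi-likelihood test of edgeR). Rpl3 averaged 775 ± 142 CPM in TET-MYCN and 553 ± 55.9 CPM in Rb-null (SD, n = 4 each), a log2 fold change of 0.49 ± 0.15 (SE, with an adjusted p of 0.199, same test). The log2 ratio of Rpl3l to Rpl3 averaged -9.01 ± 1.08 in TET-MYCN and -8.82 ± 1.52 in Rb-null, a difference of -0.19 (exact permutation p = 0.857; adjusted p = 0.943). Leaving out 1 library moved that difference to between -0.75 and 0.36.

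The testis paralogs were at or near 0. Rpl39l had 1, 1, 1 and 0 counts in TET-MYCN 1 to 4, against 2, 0, 1 and 2 counts in Rb-null 1 to 4, all at or under the 3 counts used as a floor. Rpl10l had 0 counts in all 8 libraries, which allows up to 0.130 to 0.202 CPM per library. Their partners Rpl39 and Rpl10 had log2 fold changes of 0.60 ± 0.15 each (adjusted p = 0.164 for both, by the quasi-likelihood test of edgeR). In coding sequence the 6 paralogs other than Rps4y2 were 54.0% (Rpl7l1) to 85.3% (Rpl39l) identical to their partners, and Rpl39l and Rpl3l shared no 50-base stretch with another gene.

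**Figure D4:**
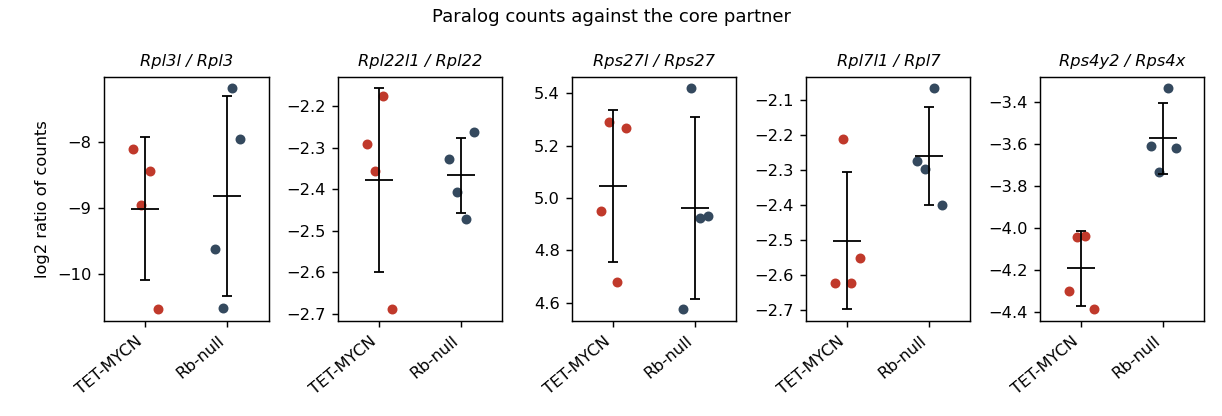
Log2 ratio of a paralog's counts to those of its core partner, a panel per pair with its own axis, with a point per library and the mean ± SD of the 4 libraries. For Rps4y2 over Rps4x all 4 TET-MYCN libraries lie below all 4 Rb-null libraries, and in the other 4 panels the groups overlap.

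Ribosomal proteins whose symbols fall outside the rule had values of the same size. All 4 that were measured were positive at an unadjusted p under 0.05, where 8.06% of all genes were. Their median log2 fold change was 0.45. Among them were Gnb2l1, the ribosome-bound scaffold also named Rack1, at 0.68 ± 0.18 (adjusted p = 0.164), Rpl36al at 0.45 ± 0.15 (adjusted p = 0.220) and Fau at 0.42 ± 0.17 (adjusted p = 0.283, by the quasi-likelihood test of edgeR). Fau encodes a ribosomal protein fused to a ubiquitin-like protein.

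Other genes listed as TOP mRNAs were higher in TET-MYCN as well. Whether each has the motif at its annotated start is not shown here. All 15 listed translation factors and other TOP mRNAs had a log2 fold change above 0, and their median was 0.41. Of the 15, 10 were higher and 0 lower at an unadjusted p under 0.05, against 8.06% and 7.72% of all genes. Groups did not overlap in 7, all higher in TET-MYCN, against 4.36% of all genes. Tpt1, a growth-related TOP mRNA, had 1123, 848, 1177 and 1163 CPM in TET-MYCN 1 to 4, against 739, 677, 614 and 734 CPM in Rb-null 1 to 4. TET-MYCN 2 was again the lowest of its group and still exceeded every Rb-null library, at a log2 fold change of 0.64 ± 0.14 (SE, with an adjusted p of 0.151, by the quasi-likelihood test of edgeR). The elongation factor subunit Eef1b2 had a log2 fold change of 0.78 ± 0.17 (SE, with an adjusted p of 0.155) and the poly(A) binding protein Pabpc1 one of 0.61 ± 0.13 (adjusted p = 0.155, same test).

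Ribosome assembly factors had smaller fold changes. Of 35, 34 were positive and the median log2 fold change was 0.25. At an unadjusted p under 0.05, 12 were higher and 0 lower, against 8.06% and 7.72% of all genes. In 7 the groups did not overlap, all higher in TET-MYCN, against 4.36% of all genes. The snoRNP proteins Gar1 and Nhp2 had log2 fold changes of 0.49 ± 0.11 (adjusted p = 0.155) and 0.59 ± 0.16, and the nucleolar chaperone Npm1 one of 0.53 ± 0.15 (adjusted p = 0.170 for both, by the quasi-likelihood test of edgeR). Gar1 had 40.4, 33.0, 37.5 and 34.0 CPM in TET-MYCN 1 to 4, against 26.5, 27.6, 24.2 and 24.7 CPM in Rb-null 1 to 4, and its groups did not overlap.

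A list of 22 mitochondrial ribosomal proteins, which serve the organelle's own ribosome, had a median log2 fold change of 0.16. Of these 22, 20 were positive. At an unadjusted p under 0.05, 2 of them, or 9.09%, were higher, close to the 8.06% of all genes. In the other direction 0 were lower, against 7.72% of all genes. The lowest p-values belonged to Mrpl19, at 0.24 ± 0.10 (adjusted p = 0.276), Mrpl16, at 0.39 ± 0.16 (adjusted p = 0.277), and Mrpl15, at 0.31 ± 0.14 (adjusted p = 0.321, by the quasi-likelihood test of edgeR). The p53 targets, a pathway that unassembled ribosomal proteins are known to activate through Mdm2, had a median of 0.01, with 8 of 15 positive and none at an unadjusted p under 0.05. Of these, Aen had 0.28 ± 0.14 (adjusted p = 0.345), Phlda3 0.27 ± 0.14 (adjusted p = 0.380) and Sesn2 -0.28 ± 0.14 (adjusted p = 0.355, same test).

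Cell type markers also varied across these libraries. For the counts of markers below, 8.06% of all genes were higher and 7.72% lower at an unadjusted p under 0.05. All 15 rod photoreceptor markers had a negative log2 fold change, 12 lower and 0 higher at an unadjusted p under 0.05, with a median of -1.08, and their summed level was 3868 to 8948 CPM in TET-MYCN and 5539.9 to 23308 CPM in Rb-null. Of 16 progenitor and cycling markers 14 were positive, 8 higher and 1 lower at an unadjusted p under 0.05, with summed levels of 3094 to 3917 CPM in TET-MYCN and 2308 to 3859 CPM in Rb-null. Rb-null 3, the lowest library for ribosomal proteins, had the highest rod sum and the lowest progenitor sum. TET-MYCN 2, the lowest of its group for ribosomal proteins, had the second-lowest rod sum and the second-lowest progenitor sum of the TET-MYCN libraries. The order was not the same across all libraries. Rb-null 4 was the highest of its group for ribosomal proteins, at 2.30% of gene counts, but had the second-highest rod sum of all libraries, 17585 CPM, and the second-lowest progenitor sum, 3037 CPM. Rb-null 2, lower than Rb-null 4 at 2.16%, had the lowest rod sum and the highest progenitor sum of its group. Of the 10 retinal identity markers 7 had a log2 fold change below 0, the median being -0.52, with 3 lower and 0 higher at an unadjusted p under 0.05. Their summed level was 3086 to 5342 CPM in TET-MYCN and 3913 to 10684 CPM in Rb-null, and their part in the ribosomal protein values was not tested. None of the rod, progenitor, lens, ciliary margin or macrophage markers was at 0 in all libraries.

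Lens markers had a median log2 fold change of -3.43 over 18 tested of 19, 16 lower and 0 higher at an unadjusted p under 0.05, with summed levels of 14.8 to 73.2 CPM in TET-MYCN and 34.2 to 750.2 CPM in Rb-null. Ciliary margin and pigment epithelium markers had a median of 1.05 over 12 tested of 17, 6 higher and 1 lower, with 362 to 771 CPM in TET-MYCN and 311 to 390 CPM in Rb-null. Within TET-MYCN their sum was 550.0, 362, 367 and 771 CPM in libraries 1 to 4. TET-MYCN 2 and TET-MYCN 3 thus lay close together, while TET-MYCN 3 was the highest of the 8 libraries for 38 ribosomal protein genes. Macrophage markers had a median of 0.07 over 12, with 281 to 514 CPM in TET-MYCN and 243 to 568 CPM in Rb-null. Of 7 erythroid markers Hba-a1, Hba-a2 and Hbb-b2 were at 0 throughout, and 1, Alas2, was tested, at a log2 fold change of -1.40 ± 0.70 (SE, with an adjusted p of 0.359, by the quasi-likelihood test of edgeR). The part of cell composition in the ribosomal protein values was not tested.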

How the data were processed

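The authors deposited 1 table of raw read counts per gene for each of the 8 libraries, made from oligo(dT)-selected mRNA, per the labels' protocols. CASAVA 1.8.2, TopHat2 2.0.8b, HTSeq 0.5.4p3 and the build mm9 are named per the submitters' processing notes, and for options, annotation and strand setting the entry is: not given in the sources used here. The files give 15.1% to 19.7% of reads with no gene in TET-MYCN and 17.7% to 19.2% in Rb-null, and these stayed out of library sizes and tests. HTSeq's own rows also show that reads aligned to several places were left out of the gene counts.

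Counts were scaled by TMM, filtered with filterByExpr by group and tested with edgeR 4.0.16 (quasi-likelihood F test, robust, in R 4.3.3), with Benjamini-Hochberg adjustment over all 15106 genes tested and a threshold of 0.05. CPM are TMM-scaled, a positive fold change means higher in TET-MYCN, and SE is the log2 fold change divided by the root of F. Ratios of paralogs used a pseudocount of 0.5 counts and needed a summed count of at least 40 for the paralog. Alternatives were DESeq2 1.42.0, limma 3.58.1, other scalings and filters, a replicate block and leaving out libraries.

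The members and the lists of other genes were chosen with earlier results of these data known. Named members are the paralogs with their partners and, in each subunit, the 5 with the smallest p, the 3 with the lowest fold change and the 3 with the highest CPM per kilobase. In each other list the 3 genes with the smallest p are named in the text or below it. A few genes that this rule picks are not reported here by name. Lengths and shared 50-base stretches come from GENCODE transcripts of GRCm38, and promoters from RefSeq, since mm9 was not used here as a sequence. Floors cover counting error only, while SD and SE values also hold the variation among libraries.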

Additional observations from a re-analysis of the deposited data

Results flagged for a closer look

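In 3 members and 1 ratio a single library lay far from the other 3 of its group by Dixon's test at its 95% critical value. Rpl10 had 297.3 CPM, Rpl23a 306.4 CPM and Rpl7 380.9 CPM in TET-MYCN 2, each far below TET-MYCN 1, 3 and 4. The log2 ratio of Rpl7l1 to Rpl7 was -2.21 in TET-MYCN 2, above the other 3 TET-MYCN libraries. Rpl23a also had 234.8 CPM in Rb-null 3, far below the other Rb-null libraries. Over all 84 members, counted in each group, TET-MYCN 2 stood apart in this way for 6 and Rb-null 3 for 2, and no other library did. Chance alone gives such a value in about 1 in 20 groups, and the members share libraries, so these are not separate events.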

How the results depend on the processing

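The count of members called was 0 in edgeR and under every scaling and filter tried, where 0.0596% to 0.0862% of all genes passed. It was 38 with DESeq2, where 2% of all genes passed as higher. Leaving out 1 library gave 0 to 40 members called, 64 to 77 at an unadjusted p under 0.05, 78 to 81 positive and 17 to 76 without overlap, with 52 without Rb-null 4. Over the same alternatives 4.78% to 11.9% of all genes were higher in TET-MYCN without overlap, with 11.9% without TET-MYCN 3. Without Rb-null 2 and 3 together, 35 members had an unadjusted p under 0.05, and the median log2 fold change of all 81 members was 0.44. The share of all genes at that unadjusted threshold was not taken with libraries left out. How far these counts stand from it is therefore not known. Leaving out 1 library, the median log2 fold change of the members was 0.47 to 0.64, of the large subunit 0.45 to 0.63 and of the small subunit 0.47 to 0.69. The difference in the share of counts was 0.796 to 1.24 percentage points, against 0.963 with all libraries and 0.684 over all reads. All scalings kept the median of all genes between 0.01 and 0.04.

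The difference in log2 ratio, leaving out 1 library, was -0.75 to 0.36 for Rpl3l, -0.079 to 0.093 for Rpl22l1, -0.045 to 0.24 for Rps27l, -0.34 to -0.18 for Rpl7l1 and -0.67 to -0.54 for Rps4y2. Among single genes the log2 fold change of Rpl3l was -0.33 without TET-MYCN 1, -0.13 without TET-MYCN 3, -0.25 without Rb-null 1, -0.30 without Rb-null 2 and -0.43 without both Rb-null 1 and TET-MYCN 3. Leaving out 1 library it was at most 0.59 for Rpl3l, -0.057 to 0.56 for Rps27, with the lowest without TET-MYCN 3, and -0.019 to 0.15 for Rps4y2, with the lowest without TET-MYCN 3. For Rps4y2 it was -0.025 without both Rb-null 1 and TET-MYCN 3. Over all alternatives of the named members, 495 values kept direction and side of the threshold, 29 passed it where edgeR's value on all libraries had not, and 8 changed sign. The cause was not tested.

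With the replicate number as a block, 0 members were called, 70 had an unadjusted p under 0.05 and the median was 0.50. The share of all genes at that unadjusted threshold was not taken with the block. Deviations from the group mean had correlations of -0.04, -0.06, -0.12 and -0.29 between same-numbered libraries. These values gave no sign of pairing by number, but they cannot exclude it. No member's call changed with the block, while 3 of all genes passed with it and 9 without it. Depth limits Rpl3l, Rpl26, Rpl39l and Rps27, which had 230, 51, 8 and 195 counts over all libraries.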

Other observations

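The 4 members on the X chromosome, Rpl10, Rpl36a, Rpl39 and Rps4x, had a median log2 fold change of 0.65, where the 482 tested genes of that chromosome had a median of 0.02. These 4 were grouped after their values were seen.

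Rps15a varied least between the TET-MYCN libraries among the members named here, a choice made after seeing its values. It had 198, 177, 202 and 188 CPM in TET-MYCN 1 to 4, against 162, 145, 123 and 145 CPM in Rb-null 1 to 4. TET-MYCN 2 was the lowest of its group by a small gap and stood above every Rb-null library, with a log2 fold change of 0.41 ± 0.10 (SE, with an adjusted p of 0.164, by the quasi-likelihood test of edgeR with Benjamini-Hochberg adjustment). Rps19, whose loss is known in human Diamond-Blackfan anaemia, had the second-highest log2 fold change of the members, 0.78 ± 0.19 (adjusted p = 0.159, same test). It had 256, 170, 252 and 334 CPM in TET-MYCN 1 to 4, against 152, 154, 117 and 165 CPM in Rb-null 1 to 4, and its groups did not overlap.

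Genes of the cell type lists with small p-values were as follows. Hmga2 and Hes5, genes of retinal progenitors, had log2 fold changes of 1.28 ± 0.19 (adjusted p = 0.0587) and 1.17 ± 0.23 (adjusted p = 0.135), with groups that did not overlap. The photoreceptor transcription factors Crx and Nrl had -0.56 ± 0.22 (adjusted p = 0.258) and -0.66 ± 0.28 (adjusted p = 0.295). The rod genes Pde6b, Sag and Reep6 had -1.78 ± 0.40 (adjusted p = 0.157), -1.23 ± 0.43 (adjusted p = 0.233) and -1.08 ± 0.38 (adjusted p = 0.238). The ciliary margin genes Bmp4, Gja1 and Otx1 had 2.95 ± 0.57 (adjusted p = 0.129), 2.17 ± 0.50 (adjusted p = 0.157) and 2.78 ± 0.71 (adjusted p = 0.164), and the lens genes Crybb3, Lgsn and Cryba4 had -2.58 ± 0.62 (adjusted p = 0.158), -1.82 ± 0.45 (adjusted p = 0.163) and -3.24 ± 0.80 (adjusted p = 0.163). The macrophage genes Cd68, Itgam and Fcer1g had 0.61 ± 0.27 (adjusted p = 0.308), 0.39 ± 0.35 (adjusted p = 0.627) and 0.36 ± 0.36 (adjusted p = 0.675). All these fold changes and p-values are from edgeR's quasi-likelihood test. Lgsn had 0.101 to 0.450 CPM in TET-MYCN, near the level of 3 counts. Crybb3, at 5.04 CPM, and Cryba4, at 1.17 CPM, lay within the TET-MYCN range in Rb-null 1. Otx1, at 0.909 CPM in TET-MYCN 2, lay within the Rb-null range.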
